A study of Mus musculus with 12 samples.

Results

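The genes described here encode the proteasome: the subunits of its 20S core and 19S cap, its activators and the chaperones that assemble it. They are the 46 of 24221 rows in the authors' deposited table whose symbol runs from Psma to Psmg followed by a number, without the immunoproteasome genes Psmb8, Psmb9 and Psmb10. By role, 16 belong to the 20S core, 17 to the 19S cap, 4 to the PA28 activators and 7 to the assembly chaperones, and the other 2 are the regulators Psme4 and Psmf1. Both groups compared are mouse acute myeloid leukaemia cells of strain C57BL/6 that carry the MLL-AF9 fusion and loxP-flanked Riok2 alleles (Riok2fl/fl). One group of 3 samples received hydroxytamoxifen (OHT) and the other group of 3 received its vehicle ethanol (EtOH), each for 72 h. The recombinase that OHT would activate is not named in the labels, which also do not say whether replicates were separate cultures or whether the cells were 1 clone. The p-values therefore cover the variation between these samples alone, and that variation may be technical. Samples of MLL-AF9 cells given DMSO or 1 µM RIOK2 inhibitor (3 each) are not analysed here.

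The proteasome is the main protease of the cytosol and nucleus for proteins tagged with ubiquitin. Its core is a barrel of alpha and beta rings with the active sites of the beta subunits facing inward, and the 19S cap on its end binds ubiquitin, removes it, unfolds the substrate with a ring of ATPases and feeds it into the barrel. PA28 and PA200 are other end caps that work without ATP. New core particles are built on dedicated chaperones that leave or are degraded once the particle is complete. The subunit genes lie apart in the genome (here on 16 chromosomes) yet are known to be transcribed in concert, in part by the factor NRF1, encoded by Nfe2l1, which acts at antioxidant response elements. Inhibitors of the core are used as drugs against blood cancers.

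The data are 1 table of results. For each gene it gives a base mean, which is the read count after division by a library size factor, averaged over the libraries of both groups, and a log2 fold change of OHT over EtOH with a standard error (SE) and a p-value adjusted over 13814 tested genes. A gene was called lower or higher in OHT where that adjusted p was under 0.05. The table holds no value per sample, so whether the samples of the 2 groups overlap could not be read for a gene unless its reads could be solved from a very low base mean. The direction rests on the targeted gene: Riok2, with a base mean of 712, had a fold change of -3.60 ± 0.20 (log2, SE) in the authors' deposited table. The labelled cell type was checked on its markers in the authors' deposited table. The 7 leukaemic myeloid markers had base means of 1648 to 34343, the lymphoid markers Cd3e and Cd79a stood at 0 and 9.49, and 4 erythroid markers did not exceed 14.1. Of 4 stromal, endothelial and epithelial markers Pecam1, which myeloid cells also carry, had a base mean of 1579 and the others did not exceed 35.3 in the authors' deposited table. Myeloid markers differed between the groups in the authors' deposited table: the integrin Itgam rose by 2.44 ± 0.12 and the granule peroxidase Mpo fell by 2.37 ± 0.23 on the log2 scale (SE), while the progenitor receptor Kit was not called (0.31 ± 0.26, adjusted p = 0.33). Of the other 4 myeloid markers in the authors' deposited table Ptprc (1.10 ± 0.12) and Spi1 (0.71 ± 0.13) rose, and Hoxa9 (-0.55 ± 0.19) and Meis1 (-0.41 ± 0.14) fell. In such bulk samples, fewer cells of a kind and less RNA per cell cannot be told apart, and the part of these marker differences in the results below was not tested.

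Proteasome genes fell together in OHT, with similar medians in core and cap. The lowest values were those of the core chaperone genes Psmg1, Psmg2 and Psmg3, and PA28 alpha and beta were not called. Of the 46 members 44 were tested, and of these 34 were lower, 1 was higher and 9 were not called by the authors' deposited table. Over all tested genes, 23.4% were lower in the authors' deposited table and 25.5% higher, and among the 4867 whose base mean was 1000 or more, which is nearer to the members' own abundance, 31.7% were lower and 31.6% higher. The median log2 fold change of the tested members was -0.55, or 68.4% of the EtOH level, beside 0.05 over all tested genes and -0.01 over the abundant ones. A negative fold change stood beside 42 of the 44 tested members in the authors' deposited table.

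**Figure D1:**
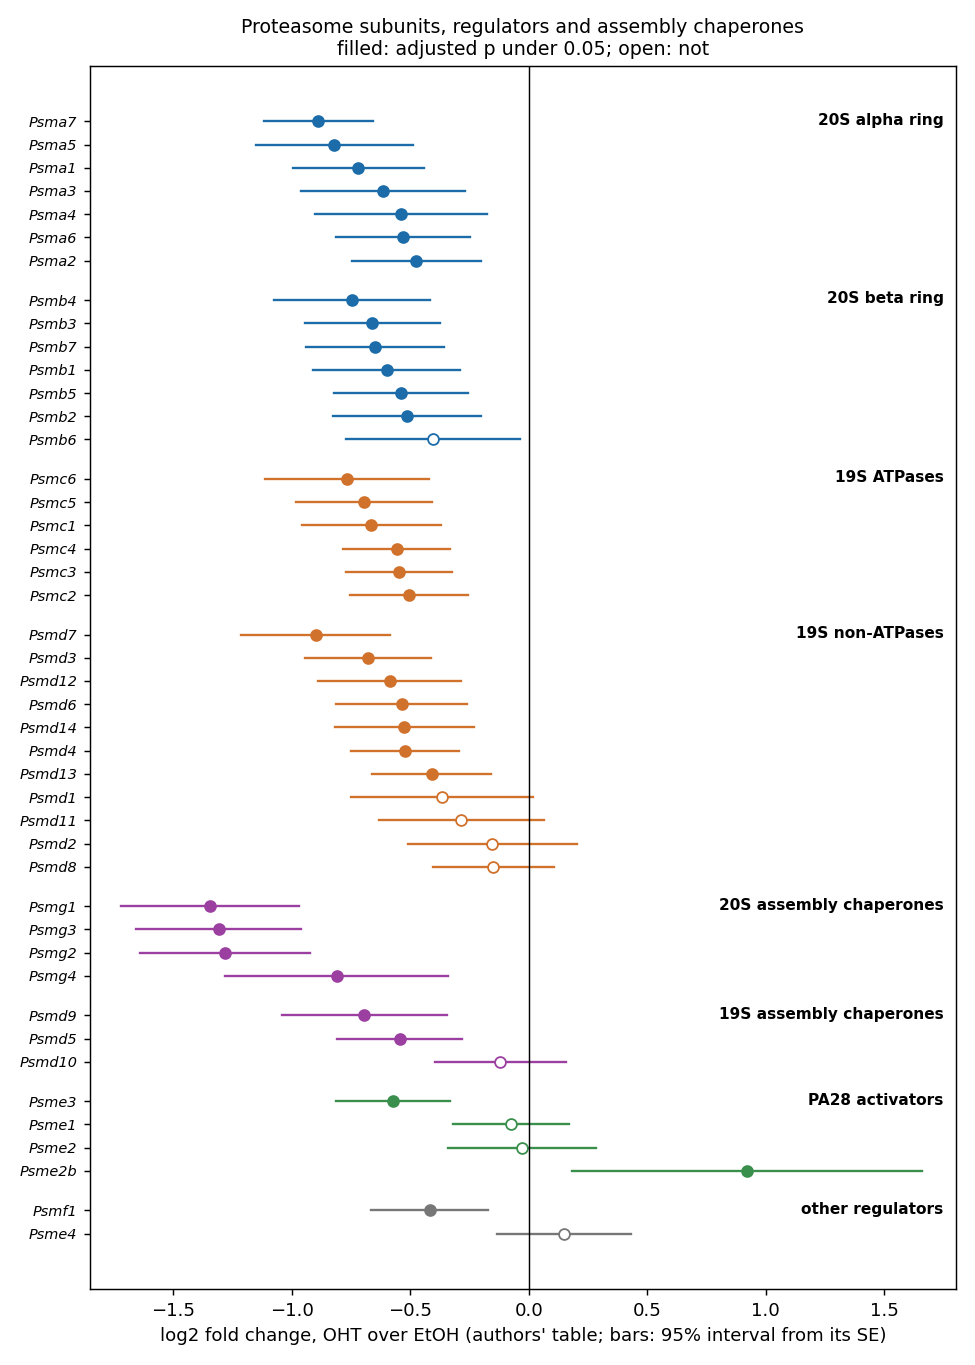
Log2 fold change of OHT over EtOH (x axis) for the 44 tested members (y axis, grouped by role), as points with 95% intervals computed from the standard errors of the authors' deposited table, filled where the adjusted p was under 0.05. Psmg1, Psmg2 and Psmg3 lie farthest to the left, near -1.3, while Psme1 and Psme2 lie at 0 within their intervals and Psme2b alone is called to the right.

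All 7 tested genes of the alpha ring, which gates the barrel and docks the caps, fell (100%, beside 31.7% of all abundant genes). The lowest fold changes in the authors' deposited table were those of Psma7 (-0.89 ± 0.12 SE, base mean 4501, adjusted p = 5.25e-13), Psma5 (-0.82 ± 0.17) and Psma1 (-0.72 ± 0.14), the latter the most abundant member with a base mean of 7780. Psma3 (-0.61 ± 0.18), Psma4 (-0.54 ± 0.19), Psma6 (-0.53 ± 0.14) and Psma2 (-0.47 ± 0.14) followed in the authors' deposited table. The 95% intervals of all 7 overlap one another, which does not settle whether genes of the ring differ, and this was not tested. As levels, the base mean and the fold change together imply that Psma7 went from 5843 to 3159 normalised reads and Psma1 from 9679 to 5881.

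In the beta ring 6 of the 7 tested genes fell. A subset of these subunits carries the active sites. Psmb5, of the chymotrypsin-like site that is the main target of proteasome inhibitor drugs, fell by 0.54 ± 0.14 and Psmb7, of the trypsin-like site, fell by 0.65 ± 0.15 in the authors' deposited table (SE, log2 scale). Psmb6, of the caspase-like site, was at -0.40 ± 0.19 with an adjusted p of 0.062 in the authors' deposited table and so was not called. The structural subunits Psmb4 (-0.75 ± 0.17), Psmb3 (-0.66 ± 0.14), Psmb1 (-0.60 ± 0.16) and Psmb2 (-0.51 ± 0.16) all fell in the authors' deposited table. GENCODE M21 also names processed pseudogenes after Psmb5, Psmb6 and Psmb7, and the treatment of reads that such copies share is unknown here, so the values of these 3 genes are uncertain to that extent. Whether other members have processed pseudogenes is not reported here, so the same limit may hold for them. Over the whole core 13 of 14 tested genes fell, with a median of -0.61 and a range of -0.89 to -0.40. The share called lower was 23.4% over all tested genes and 31.7% over the abundant ones.

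The 3 active-site subunits have counterparts in the immunoproteasome. Of these counterparts 1 of 3 was called lower (33.3%, beside 23.4% of all tested genes), too few to be set apart by such counts. Psmb8, which replaces Psmb5, fell by 0.87 ± 0.14, while Psmb9 (-0.01 ± 0.22, adjusted p = 0.97), which replaces Psmb6, and Psmb10 (-0.15 ± 0.15, adjusted p = 0.40), which replaces Psmb7, were not called in the authors' deposited table.

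Tissue-restricted core genes were all but silent. Psma8, an alpha subunit of the testis, and Psmb11, the beta subunit of thymic epithelium, had base means of 0.28 and 0.86 in the authors' deposited table and no adjusted p. At such low base means the whole reads in each of the 6 libraries could be solved. Psma8 had 1 read in 1 library on each side of the comparison and 0 in the other 4 libraries. Psmb11 had 2 reads in 1 OHT library and 0 in the other two, against 2, 1 and 0 reads in the EtOH libraries. Both sides overlap, and no fold is given for either gene.

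The 6 ATPases that form the unfolding ring of the 19S base all fell (100%, beside 31.7% of all abundant genes). Their fold changes in the authors' deposited table ran from -0.77 ± 0.18 (Psmc6, adjusted p = 5.79e-05) through Psmc5 (-0.70 ± 0.15), Psmc1 (-0.66 ± 0.15), Psmc4 (-0.56 ± 0.11) and Psmc3 (-0.55 ± 0.11) to -0.51 ± 0.13 (Psmc2). The 6 genes had a median of -0.61, or 65.5% of the EtOH level.

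Of the 11 non-ATPase subunits of the cap 7 fell and 4 were not called. Psmd7, the partner of the deubiquitinase in the lid, had the lowest fold change of any structural subunit in the authors' deposited table (-0.90 ± 0.16 SE, adjusted p = 1.67e-07), with an implied level of 4857 in EtOH and 2604 in OHT. The deubiquitinase itself, Psmd14, fell by 0.52 ± 0.15, and the ubiquitin receptor Psmd4 fell by 0.52 ± 0.12 in the authors' deposited table. The lid subunits Psmd3 (-0.68 ± 0.14), Psmd12 (-0.59 ± 0.15), Psmd6 (-0.53 ± 0.14) and Psmd13 (-0.41 ± 0.13) fell as well in the authors' deposited table. Not called there were the large scaffold subunits of the base, Psmd2 (-0.15 ± 0.18, adjusted p = 0.51) and Psmd1 (-0.37 ± 0.20, adjusted p = 0.11), and the lid subunits Psmd8 (-0.15 ± 0.13, adjusted p = 0.35) and Psmd11 (-0.28 ± 0.18, adjusted p = 0.18). The 95% interval of Psmd8, from -0.41 to 0.11, excludes a fall as deep as the median of the cap (-0.53), and that of Psmd2, from -0.51 to 0.20, stops just short of it. The interval of Psmd1, from -0.75 to 0.02, holds that median, so its miss of the threshold does not set it apart. Over the whole cap 13 of 17 genes fell (76.5%, beside 31.7% of all abundant genes).

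Taken over core and cap, the fold changes of the tested subunits ran from -0.90 to -0.15. Their standard deviation over the 31 genes was 0.18, and the median SE of a gene was 0.15 in the authors' deposited table. An SE measures error between libraries, which all 31 genes share. These values therefore cannot show whether the subunits differ, and this was not tested. For 27 of the 31 the 95% interval held the common median of -0.55, and the exceptions were Psma7 and Psmd7, which were lower, and Psmd2 and Psmd8, which were higher. Fold change bore little relation to abundance across these 31 genes (Spearman's rho 0.02 with base mean) and a weak one to transcript length (rho 0.26), as descriptions across genes that share all their libraries.

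**Figure D2:**
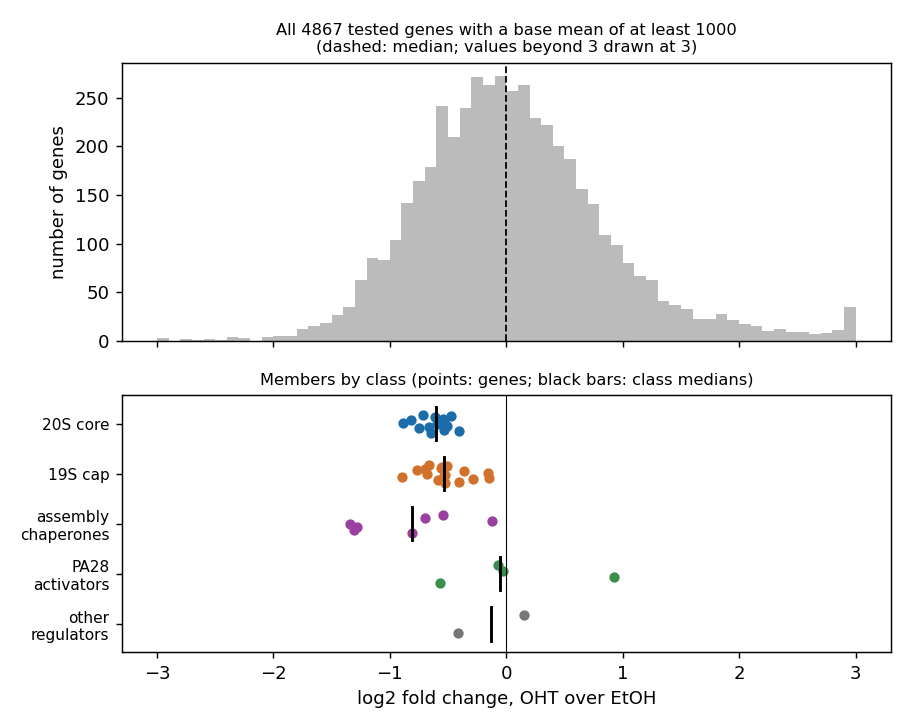
Log2 fold changes of OHT over EtOH (x axis): above, the number of genes per bin among the 4867 tested genes whose base mean was 1000 or more, below, the members by class with their medians. The class medians of the core (-0.61), the cap (-0.53) and the assembly chaperones (-0.81) lie to the left of the background median of -0.01, and that of PA28 (-0.05) lies beside it. The assembly chaperones (median base mean 804) and Psme2b (54.2) are scarcer than this background, and the median over all tested genes was 0.05. The chaperone median joins those of the core (-1.30) and of the 19S base (-0.55), and the PA28 genes range from -0.57 to 0.92.

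The deepest falls were those of the core assembly chaperone genes Psmg1, Psmg2 and Psmg3. Psmg1 and Psmg2 encode the partners PAC1 and PAC2, which dimerise and hold the growing alpha ring, and Psmg3 and Psmg4 encode PAC3 and PAC4, a further dimer that orders the alpha subunits. In the authors' deposited table Psmg1 fell by 1.35 ± 0.19 (SE, base mean 997, adjusted p = 2.82e-11), Psmg3 fell by 1.31 ± 0.18 (base mean 663, adjusted p = 2.22e-12) and Psmg2 fell by 1.28 ± 0.18 (base mean 847, adjusted p = 3.09e-11). These 3 had the lowest fold changes of all 44 tested members. Their OHT levels were 39.3%, 40.4% and 41.1% of those in EtOH, and the implied levels went from 1431 to 563 for Psmg1, from 945 to 382 for Psmg3 and from 1201 to 493 for Psmg2. The 95% intervals of these 3 genes end at -0.97, -0.96 and -0.92 and so lie wholly below the median of core and cap, although a test of the difference between genes needs values per sample and was not made. Psmg4 fell by 0.81 ± 0.24 in the authors' deposited table (base mean 260, adjusted p = 0.0022), and its wider interval, from -1.28 to -0.34, stops just short of the value of its partner Psmg3 and holds the median of core and cap. By position on GRCm38 the genes are unlinked, with Psmg1 at chr16:95979933-95990960, Psmg3 at chr5:139823592-139826885 and Psmg4 at chr13:34162964-34178173. The chaperone Pomp, which completes the core and is not named by the Psm scheme, was lower by a smaller amount in the authors' deposited table (-0.40 ± 0.15, adjusted p = 0.016).

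The chaperones of the 19S base lay nearer to the subunits. In the authors' deposited table Psmd9 fell by 0.69 ± 0.18 and Psmd5 fell by 0.55 ± 0.14, while Psmd10, which encodes gankyrin, an ankyrin repeat protein also known as an oncoprotein, was at -0.12 ± 0.14 (adjusted p = 0.51). The interval of Psmd10, from -0.40 to 0.16, excludes the median of core and cap. In all, 6 of 7 assembly chaperones fell (85.7%, beside 23.4% of all tested genes), with a median of -0.81.

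Of the 4 PA28 genes 1, Psme3, was called lower (25%, near the 23.4% of all tested genes). Psme1 and Psme2 encode PA28 alpha and beta, which form the interferon-inducible cytoplasmic activator used in antigen processing, and neither was called in the authors' deposited table: Psme1 was at -0.07 ± 0.12 (base mean 2540, adjusted p = 0.65) and Psme2 at -0.03 ± 0.16 (base mean 1838, adjusted p = 0.90). Their 95% intervals, from -0.32 to 0.17 and from -0.34 to 0.29, exclude the median of core and cap (-0.55). The same intervals hold the fold changes of the cap subunits Psmd11 (-0.28), Psmd2 (-0.15) and Psmd8 (-0.15). Both genes lie 5911 bases apart on chromosome 14 (GRCm38 chr14:55578123-55581529 and chr14:55587441-55591113) and point towards each other. Psme3, which encodes the nuclear PA28 gamma that degrades proteins without ubiquitin and lies on chromosome 11, fell by 0.57 ± 0.12 in the authors' deposited table (base mean 5437, adjusted p = 1.65e-05), close to the median of the core. Whether Psme3 differs from Psme1 and Psme2 was not tested.

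Psme2b was the single member called higher, at a log2 fold change of 0.92 ± 0.38 with an adjusted p of 0.031 in the authors' deposited table. It is a copy of Psme2 in 1 exon on chromosome 11 (GRCm38 chr11:48945354-48946190, minus strand), with a base mean of 54.2 against 1838 for Psme2. The coding sequences of both genes are 717 bases long in GENCODE M21 and differ at 5 positions, which makes them 99.3% identical. Counted from 1 at the first base of the coding sequence, with the base of Psme2 first, the differences are C312T, A369G, C489T, C519T and C543T. Few letters can therefore assign a read to either gene. The 90 coding bases from position 454 to 543 were picked as a stretch with the most differences, so they are not a typical one. They are printed with the 3 differing bases in capitals (GRCm38, spliced for Psme2).
Psme2, chr14:55588049-55588276, minus strand: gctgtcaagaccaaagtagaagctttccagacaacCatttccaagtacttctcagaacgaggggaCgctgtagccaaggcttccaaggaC
Psme2b, chr11:48945576-48945665, minus strand: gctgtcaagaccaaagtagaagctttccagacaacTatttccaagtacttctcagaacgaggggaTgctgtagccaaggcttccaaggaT

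The treatment of reads that match both genes is unknown here, so the value of Psme2b is uncertain, and it also fails an adjusted p of 0.01. No other tested member has a positive fold change apart from Psme4.

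Of the 2 remaining regulators 1 fell, where 23.4% of all tested genes did, and 2 genes are too few to be set apart by such counts. Psme4 encodes PA200, a nuclear end cap linked to the breakdown of histones, and was at 0.15 ± 0.14 (base mean 3689, adjusted p = 0.41) in the authors' deposited table, with an interval from -0.13 to 0.43. Psmf1, which encodes PI31, first described as an inhibitor of the core, fell by 0.42 ± 0.13 in the authors' deposited table (base mean 1032, adjusted p = 0.0025).

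Levels of different genes can be compared only per length, here the length of the principal transcript in GENCODE M21. The implied EtOH level had a median of 3811 normalised reads per kb over the 14 tested core genes and 2377 over the 17 cap genes, and in OHT 2474 and 1647. The assembly chaperones were scarcer, with a median of 625 per kb in EtOH and 432 in OHT. In EtOH Psmg1 (1371 per kb), Psmg2 (1134) and Psmg3 (1070) stood above Psmd5, Psmd9, Psmd10 and Psmg4 (382 to 625), and in OHT the whole class spanned 236 to 539. Psme1 stood at 2344 and 2225 per kb in EtOH and OHT, and Psme3 at 2440 and 1641, and no error was computed for these levels, so the order of both genes in EtOH is not resolved. Such levels move with the transcript model chosen, and those of Psma2 and Psma3 rest on models far longer than the other core genes. The EtOH median of the assembly chaperones is the level of Psmd5, whose model is 4397 bases long.

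**Figure D3:**
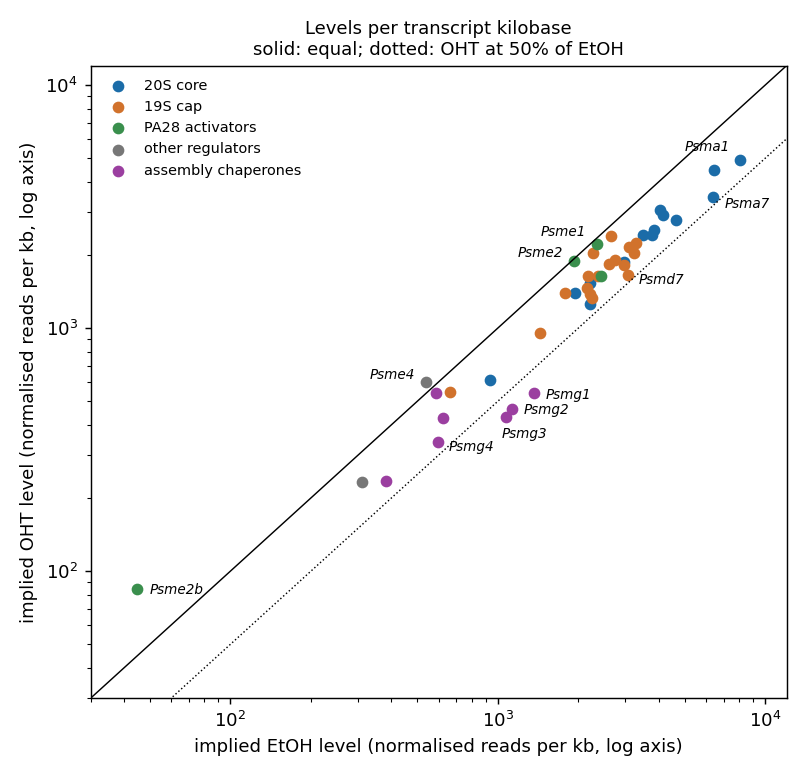
Implied levels of the 44 tested members in EtOH (x axis) and OHT (y axis), in normalised reads per kb of principal transcript on log axes, coloured by class. Core and cap genes lie in a band between the line of equality and the dotted line at 50%, Psmg1, Psmg2 and Psmg3 lie below the dotted line, and Psme1 and Psme2 lie next to equality.

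Since the members moved together, their promoters were read for sites of factors known to act on proteasome genes. RefSeq promoter windows on GRCm38.p6, from 250 bases before to 50 after each start, were at hand for 38 of the 46 members (41 windows). The antioxidant response element core, TGACNNNGC on either strand, occurred in 6 of these 41 windows (14.6%) and in 12.4% of all 32851 windows of the same length. Its holders were Psmb5, Psmb6, Psmc6, Psmd9, Psmd12 and Psme4, of which 4 were called lower, with a median log2 fold change of -0.56. Of the 31 tested members with a window and no match 23 were called lower, with a median of -0.53. The E-box CACGTG, bound by MYC among others, was in 7.32% of member windows and 7.15% of all, the CCAAT box of NF-Y in 31.7% and 37.4%, and the AP-1 site TGAGTCA in 2.44% and 5.20%. None of the element cores overlapped an AP-1 match. A match is a description of letters and not a site of binding, and a window with no match says nothing of elements outside it. The windows of Psmb5 and Psmc6, which fell, and of Psme4, which was not called, are printed 5′ to 3′ on the gene's strand as examples of where the element core lies, with the core in capitals.
Psmb5 promoter, chr14:54617946-54618245, minus strand: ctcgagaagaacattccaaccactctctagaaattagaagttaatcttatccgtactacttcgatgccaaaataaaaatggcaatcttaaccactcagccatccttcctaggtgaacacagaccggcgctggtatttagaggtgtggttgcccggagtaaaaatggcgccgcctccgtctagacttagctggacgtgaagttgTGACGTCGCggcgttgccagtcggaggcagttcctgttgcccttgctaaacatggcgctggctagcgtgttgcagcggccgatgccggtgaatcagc
Psmc6 promoter, chr14:45329574-45329873, plus strand: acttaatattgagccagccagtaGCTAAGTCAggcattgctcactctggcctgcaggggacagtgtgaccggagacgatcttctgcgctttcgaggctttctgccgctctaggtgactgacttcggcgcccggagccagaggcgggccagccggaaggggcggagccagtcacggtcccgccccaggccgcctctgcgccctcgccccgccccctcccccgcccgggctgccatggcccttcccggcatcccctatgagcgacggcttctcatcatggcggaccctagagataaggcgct
Psme4 promoter, chr11:30771525-30771824, plus strand: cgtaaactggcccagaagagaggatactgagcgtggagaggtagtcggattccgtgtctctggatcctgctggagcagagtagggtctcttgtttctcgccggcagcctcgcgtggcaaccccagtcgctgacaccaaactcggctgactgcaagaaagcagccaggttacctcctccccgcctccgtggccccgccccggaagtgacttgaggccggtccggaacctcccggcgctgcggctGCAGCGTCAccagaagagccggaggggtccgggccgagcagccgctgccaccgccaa

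Genes around the proteasome were read in the same way. Of the proteasome-associated proteins 10 were found in the table, with a median of -0.39. Of these 10, 0 rose and 5 fell (50%, beside 31.7% of all abundant genes, a difference that was not tested). In the authors' deposited table these were the cap-bound deubiquitinases Uchl5 (-0.88 ± 0.18) and Usp14 (-0.66 ± 0.16), the thioredoxin-like Txnl1 (-0.68 ± 0.16), the ubiquitin receptor Adrm1 (-0.42 ± 0.12) and Pomp. Shfm1, the older name of the small lid subunit Sem1 and the most abundant of the list with a base mean of 7421, was at -0.13 ± 0.20, and the highest fold change was that of the ligase Ube3c (0.08 ± 0.15) in the authors' deposited table.

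Among regulators of proteasome gene transcription 2 of 14 tested were lower (14.3%, against 23.4% of all tested genes) and 4 were higher, with a median of 0.07, so the list does not stand out from the background by its counts. Nfe2l1, the gene of NRF1, fell by 0.44 ± 0.17 (adjusted p = 0.023), while Ddi2, the protease that cleaves NRF1 into its active form, rose by 0.77 ± 0.24 in the authors' deposited table. Nfe2l2, which encodes the related NRF2, rose by 0.80 ± 0.12, the small Maf partner Mafg by 0.46 ± 0.14 and Bach1, a repressor at the same elements, by 1.01 ± 0.18 in the authors' deposited table. The NF-Y subunit gene Nfyb fell by 0.37 ± 0.15, Maff had the lowest fold change (-0.45 ± 0.21, adjusted p = 0.058), and Sel1l, the most abundant, was at -0.03 ± 0.10 in the authors' deposited table.

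Of 17 genes for substrate shuttles and the VCP unfoldase 6 fell (35.3%, near the 31.7% of all abundant genes) and 2 rose, with a median of -0.14. The shuttle Rad23b had the lowest fold change (-0.65 ± 0.16), Vcp, the most abundant, was at -0.10 ± 0.19, and the rises were those of Midn (0.59 ± 0.15) and Zfand2a (0.50 ± 0.16) in the authors' deposited table. Of 7 cytosolic peptidases, which trim the peptides that leave the proteasome, 4 fell and 2 rose. Among all abundant genes 31.7% were lower and 31.6% higher, and 7 genes are too few to be set apart by such counts. Thop1 was lowest (-1.45 ± 0.18), and Npepps (0.92 ± 0.14), the most abundant, and Nln (0.44 ± 0.15) rose in the authors' deposited table.

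**Figure D4:**
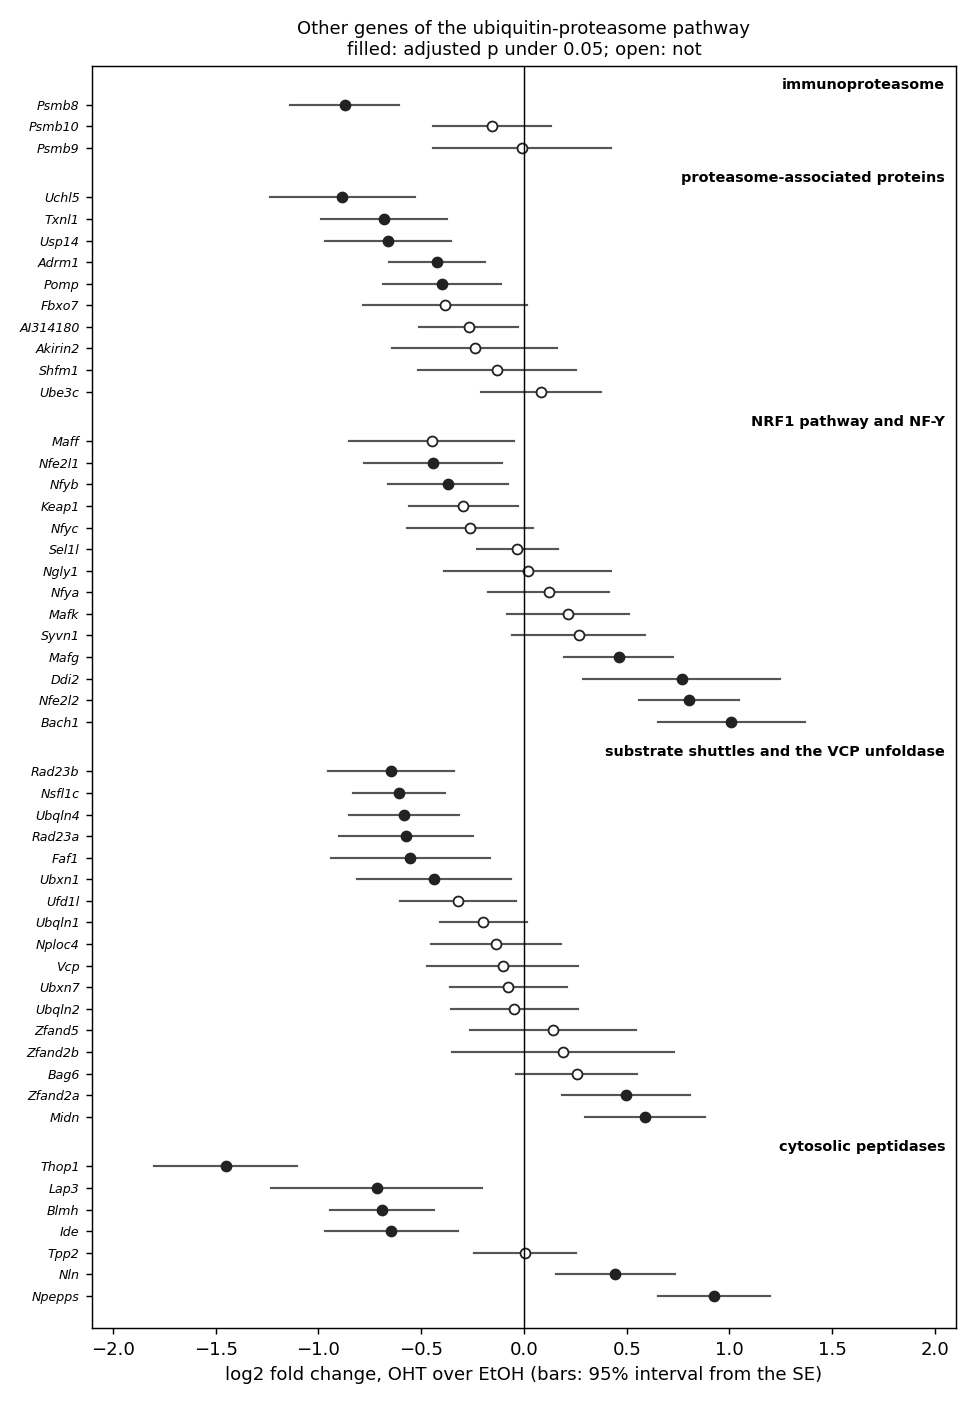
Log2 fold change of OHT over EtOH (x axis) for genes outside the member list (y axis, by list), with 95% intervals from the standard errors of the authors' deposited table, filled where the adjusted p was under 0.05. Filled points lie on both sides of 0 in 3 of the 5 lists, whereas the immunoproteasome and proteasome-associated lists have filled points to the left alone.

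Some exons are shared with other genes. In GENCODE M21 32 of the 44 tested members share no exonic base with another gene, and the largest share was 25.5% in Psmd9, with the opposite-strand Gm26745. Opposite-strand partners with shorter overlaps include Nek6 for Psmb7, Sirt3 for Psmd13 and Slc39a13 for Psmc3. On the same strand, bases are shared by Psmb5 with Mir686 (12.1%), by Psmg3 with Gm26938 (9.68%), by Psme2b with 9930111J21Rik1 (4.90%) and by Psmd1 with Gm21972. It is unknown here whether the counting used strand, so reads of the opposite-strand partners cannot be told apart from those of the members in the shared stretches, and reads of same-strand partners could not be told apart there in either case.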

How the data were processed

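RNA of 12 samples in 4 groups was sequenced, per the labels, and the 6 samples of the OHT and EtOH groups enter the 1 deposited table. DESeq2, DESeq, HTSeq 0.9.1, Trimmomatic 0.38.0 and STAR 2.7.2b were used on build mm10, per the submitters' processing notes (annotation and counting options: not given in the sources used here). For each gene the authors deposited a signal, the base mean in normalised reads, and a log2 fold change with its SE. A Wald score and p-values, raw and adjusted, were deposited beside them. The columns carry no names. On the values, the deposited score equals fold over SE to within 7.56e-08 and the adjusted p equals the Benjamini-Hochberg value over 13814 genes (largest difference 2.33e-07). No SE exceeds 0.747, so the deposited log2 fold changes appear shrunken and understate changes of low genes. Base means sum to 20307732 normalised reads per library.

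Computed here with Python 3.11.15, pandas 2.3.3 and scipy 1.17.1 were 95% intervals (fold ± the normal quantile times SE), implied levels (base mean and fold solved for 2 group means), counts, medians and alternatives, tested on simulated data. Of the tests planned for 3 kinds of file, that for a comparison table applied. The members and lists were chosen with earlier results of these data known. Every member is named, and of each other list the lowest and highest fold, the most abundant gene and those called against the list's majority, and further genes were chosen after their values were seen. One marker and 1 planned list of ubiquitin pathway genes are not reported here. Whole reads of Psma8 and Psmb11 were solved from the size factors that single-read genes reveal, within 5e-09. Transcript lengths, positions and exon overlaps were taken from GENCODE M21 (GRCm38, which is mm10). Coding sequences were aligned with Biopython 1.88.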

Additional observations from a re-analysis of the deposited data

How the results depend on the processing

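The 34 members called lower became 35 with folds centred on the median of all tested genes (a shift of 0.05), where Psmb6 also passed, and 31 when a log2 fold beyond 0.5 was also asked for, where Psma2, Psmd13 and Psmf1 no longer passed. The alternatives do not test the direction of a member. The 2 centrings subtract only 0.05 and -0.006 from each fold, and no tested member lay where such a shift could change its sign. The other 4 alternatives run on the members leave the folds as they are. Those are an adjusted p under 0.01, re-adjustment over every row with a p-value, base means of 100 or more and the minimum fold. The count of members higher, and with it that of PA28 genes higher, went from 1 to 0 at an adjusted p under 0.01 and to 0 at a base mean of at least 100, where Psme2b is no longer tested. With classes taken from the symbol letter alone, 15 of 20 cap genes, 1 of 5 Psme genes and 4 of 4 Psmg genes were lower. Leaving out replicates was not run, since the table holds no values per sample. No paired analysis was possible because the deposited columns carry no replicate numbers. Folds are relative to the other RNA of a library, and a change in total RNA per cell would not show. With a median SE of 0.15 for the tested members, single genes with falls much shallower than the common median could be missed.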
